A study of Rattus norvegicus with 10 samples.

Results

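The genes described here encode the folding machinery of the endoplasmic reticulum (ER) and the stress response that regulates it. The 34 genes were listed by name for these roles, with no measured value in the rule, but with earlier results of these data known. All 34 were found once among the 32623 genes of the deposited expression table. The animals were Sprague-Dawley rats, males of 250 to 300 g from an outbred strain, and the tissue was the supraoptic nucleus of the hypothalamus. In every rat an adeno-associated virus had carried a short hairpin RNA against Opn3 (opsin 3, a light-sensitive receptor) to the nucleus of one side, and the nucleus of the other side had received one whose hairpin has no target. Punches of 1 mm from sections of 100 μm were taken 2 weeks later, and RNA of each nucleus was extracted and sequenced separately. The 5 shControl samples (non-targeting hairpin) were compared with the 5 shOpn3 samples (hairpin against Opn3). Both groups had thus received a virus, and no nucleus without a virus was analysed here. The promoter of the hairpin and the cell types the virus reached are not given in the sources used here.

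Secreted and membrane proteins enter the ER, where chaperones and disulfide isomerases fold them, and proteins that fail to fold are sent back to the cytosol for degradation. The sensors IRE1 (encoded by Ern1), PERK (Eif2ak3) and ATF6 respond to unfolded proteins. IRE1 splices Xbp1 mRNA, PERK slows translation and raises ATF4, and ATF6 is released as a transcription factor, and these factors raise chaperone and degradation genes. The vasopressin (Avp) and oxytocin (Oxt) neurons of this nucleus make large amounts of peptide precursors and are known for a high folding load. Counts per gene show neither Xbp1 splicing nor the activity of a sensor.

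Some transcripts of the folding machinery and of protein degradation were lower in the shOpn3 nuclei, as were Ern1 and Xbp1 of the IRE1 branch. Most of the 34 genes were not called. Of the lower genes, Hsp90b1 lost its call in 9, Xbp1 in 5 and Os9 in 1 of 24 alternatives. The stress target Sesn2 was higher. A second target, Trib3, was called higher on 6 to 15 control reads, passed the filter on low values through its shOpn3 samples, and lost its call in 9 of 23 alternatives. All 34 genes had a mean of at least 10 normalized counts (reads divided by a size factor per sample) and were tested by limma on log2(normalized count + 1), with p-values adjusted over 15597 genes. Of the 34, 8 fell (Ern1, Hyou1, Manf, Hsp90b1, Pdia6, Xbp1, Syvn1 and Os9), 2 rose (Trib3 and Sesn2) and 24 were not called at an adjusted p of 0.05. The called share was 29.4% of the genes, with 18.8% of all genes called in the same fit. By direction, 23.5% of the 34 fell, with 8.48% of all genes lower, and 5.88% rose, with 10.4% of all genes higher. The median log2 fold change was -0.15 over the 34 genes and -0.02 over all genes tested. With the replicate number as a block, which removes what same-numbered samples share, 16 genes were called (47.1%, with 30.3% of all genes), the 10 genes above among them. Of these 13 were lower (38.2%, with 15.2% of all genes) and 3 higher (8.82%, with 15.1% of all genes).

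**Figure D1:**
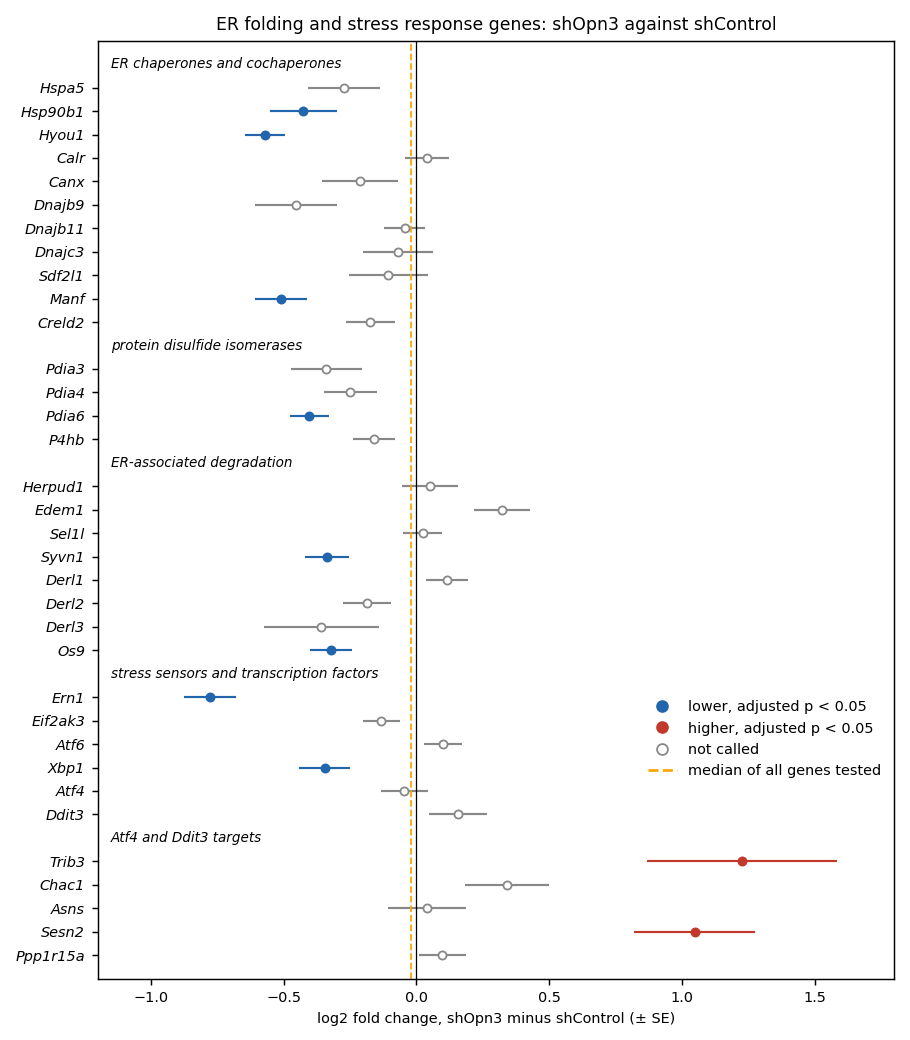
Log2 fold change of each of the 34 genes (x axis, shOpn3 minus shControl, on the log2(normalized count + 1) scale, bars ± SE, 5 samples a group), in blocks by role. Filled blue points are the 8 lower and filled red points the 2 higher genes, open points were not called, and the dashed line marks the median of all genes tested at -0.02.

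The values rest on 33158341 to 39958578 reads per sample. The target Opn3 had 719, 694, 841, 1007 and 261 normalized counts in shControl replicates 1 to 5 and 290, 193, 159, 154 and 145 in shOpn3 (log2 fold change -1.82 with an SE of 0.320; adjusted p = 0.00226 by limma). It was lower in 5 of 5 same-numbered pairs, although shControl replicate 5 lay below shOpn3 replicate 1. Avp and Oxt were lower in 5 of 5 pairs as well, with limma log2 fold changes of -2.35 and -2.21 (adjusted p = 0.00269 and 0.000915). Markers of some cell types moved beside the genes described here. Of all genes tested, 18.8% were called, 10.4% higher and 8.48% lower. Of 10 magnocellular markers 9 were lower, with a summed level of 87779 to 210651 normalized counts in shControl and 39300 to 76917 in shOpn3. Of 10 oligodendrocyte markers 10 were lower (748448 to 1274901 and 255911 to 482833), and of 12 microglia and macrophage markers 11 were higher (11305 to 15809 and 21755 to 45342). Of 10 neuron markers 1 was higher and 2 were lower, and of 10 astrocyte markers 3 were higher. Of 9 tested plasma and lymphoid markers 3 were higher and 1 was lower. Of 8 endothelium and mural markers 0 were called, and of 5 oligodendrocyte precursor markers 1 was lower. Whether the counts in these short lists differ from the shares of all genes was not tested. No marker was at 0 in all samples, and the part of the marker shifts in the results was not tested. In bulk tissue fewer cells of a type cannot be told apart from less RNA per cell.

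A shared promoter sequence is shown for some of these genes because it is the classical response element of the chaperone genes and recurs among them. Promoters came from the RefSeq set of assembly GRCr8, in which 27 of the 34 genes were matched by symbol, and the 250 bases before the start were searched on both strands. Manf, Pdia3, Pdia6, Derl1, Os9, Ern1 and Atf6 were not matched. The ER stress response element (ERSE, which is CCAAT, then 9 bases of any kind, then CCACG, known to bind ATF6 with NF-Y) stood before 8 of the 27 genes, namely Hspa5, Hsp90b1, Creld2, Canx, Xbp1, Dnajc3, Calr and Derl3, and before 0.0657% of all 33469 promoters. ERSE-II (ATTGG, then 1 base of any kind, then CCACG) stood before Hyou1 (in the first of its 2 promoter entries) and Herpud1 and before 0.0418% of all promoters. The amino acid and CHOP-type element TTGCATCA, known to bind ATF4 with C/EBP factors, stood before Chac1 and Herpud1 and before 0.693% of all promoters. The XBP1-type element TGACGTGG stood before Hyou1, where it overlaps the ERSE-II farther from the start, and before 0.52% of all promoters. Of the 8 genes with an ERSE, 2 fell and 6 were not called, with log2 fold changes from -0.43 to 0.04. Of all genes tested, 18.8% were called and 8.48% were lower. In the stretches below, written 5′ to 3′ on the strand of the gene, capitals mark the element, as its reverse complement in the second Hsp90b1 stretch and in Calr and Hyou1.
Hspa5, ERSE, chr3:38452953-38453011 (+): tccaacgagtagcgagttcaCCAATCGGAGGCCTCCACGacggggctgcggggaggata
Hsp90b1, ERSE, chr7:23012431-23012489 (-): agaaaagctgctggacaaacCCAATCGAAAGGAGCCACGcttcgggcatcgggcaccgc
Hsp90b1, ERSE, chr7:23012327-23012385 (-): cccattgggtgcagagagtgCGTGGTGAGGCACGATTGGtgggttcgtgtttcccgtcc
Xbp1, ERSE, chr14:84604538-84604596 (+): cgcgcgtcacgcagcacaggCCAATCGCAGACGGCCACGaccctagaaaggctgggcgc
Canx, ERSE, chr10:35158049-35158107 (-): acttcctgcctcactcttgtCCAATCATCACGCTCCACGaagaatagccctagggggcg
Calr, ERSE, chr19:40213117-40213173 (+): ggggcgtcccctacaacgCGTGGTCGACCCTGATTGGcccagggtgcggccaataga
Hyou1, ERSE-II, chr8:53602774-53602824 (+): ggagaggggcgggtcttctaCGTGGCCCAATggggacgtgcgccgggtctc
Herpud1, ERSE-II, chr19:10614801-10614851 (-): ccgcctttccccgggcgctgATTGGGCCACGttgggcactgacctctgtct
Chac1, TTGCATCA, chr3:126795944-126795991 (+): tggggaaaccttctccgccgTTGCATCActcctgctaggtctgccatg

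Of the 11 chaperones and cochaperones, 3 fell (27.3%, with 8.48% of all genes lower), 0 rose (with 10.4% of all genes higher) and 8 were not called. Whether the counts in this and the other small groups by role differ from the shares of all genes was not tested. Hyou1 (ENSRNOG00000010944), a large relative of Hsp70 that exchanges the nucleotide of BiP, had 13292, 12980, 12794, 13367 and 11822 normalized counts in shControl replicates 1 to 5 and 9579, 8834, 7574, 8784 and 8581 in shOpn3 replicates 1 to 5. The lowest shControl sample lay above the highest shOpn3 sample. The means were 12851 ± 620 and 8671 ± 720 (SD, n = 5 per group), which gives a log2 fold change of -0.57 (SE 0.0745; adjusted p = 0.000496 by limma; p = 0.00794 in an exact two-sided permutation). That permutation p is the smallest that 5 against 5 samples allow, and within 5 pairs the smallest is 0.0625.

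Manf (ENSRNOG00000014201), a secreted and ER-resident survival factor, had 2027, 2494, 2724, 2929 and 2424 in shControl and 1733, 1677, 1682, 1954 and 1744 in shOpn3. The groups did not overlap, and the spread was wider in shControl. Manf fell from 2519 ± 340 to 1758 ± 114 (SD, n = 5 per group), with a log2 fold change of -0.51 (SE 0.0963; adjusted p = 0.00335 by limma).

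Hsp90b1 (ENSRNOG00000026963), the ER form of Hsp90 known as GRP94, had 37737, 50510, 56816, 55604 and 39054 in shControl and 34996, 39529, 33405, 35376 and 32793 in shOpn3. The groups overlapped, because shControl replicates 1 and 5 lay below shOpn3 replicate 2. The means were 47944 ± 9044 and 35220 ± 2638 (SD, n = 5 per group), which gives a log2 fold change of -0.43 (SE 0.127; adjusted p = 0.0338 by limma). This call was lost without any one of shControl replicates 2, 3 and 4 and shOpn3 replicates 1, 3, 4 and 5, with adjusted p from 0.0554 to 0.0853, and also after quantile normalization (0.0574) and with no filter on low values (0.0505).

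Hspa5 (ENSRNOG00000018294), which encodes BiP, the main Hsp70 of the ER, was not called. It had 30633, 39710, 45258, 47451 and 32824 in shControl and 26403, 36225, 31678, 35619 and 30837 in shOpn3. It was lower in 5 of 5 pairs while the groups overlapped (log2 fold change -0.27 with an SE of 0.136; adjusted p = 0.191 by limma), and with the block it was called (adjusted p = 0.0447). Dnajb9, a cochaperone of BiP that is induced through XBP1, had 3051, 4152, 4981, 4793 and 2935 in shControl and 2534, 3301, 2888, 3121 and 2446 in shOpn3. Its log2 fold change was -0.45 (SE 0.156; adjusted p = 0.062 by limma), with an adjusted p of 0.00634 under the block, and it was also called without shControl replicate 1 (0.0326) or without shControl replicate 5 (0.0214). These were its lowest controls, so either omission widens the difference by construction. In both genes the overlap came from the same pair of control samples, replicates 1 and 5.

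The lectin chaperones, which hold glycoproteins during folding, were not called. Calr (calreticulin) had 25959 ± 1939 in shControl and 26705 ± 2353 in shOpn3, and membrane-bound Canx (calnexin) had 64821 ± 12640 and 55468 ± 7246 (SD, n = 5 per group), with log2 fold changes of 0.04 and -0.21 (adjusted p = 0.789 and 0.342 by limma). The BiP cochaperones Dnajb11 and Dnajc3 had log2 fold changes of -0.04 and -0.07, Sdf2l1, which forms a complex with Dnajb11, had -0.11, and Creld2, a secreted ER stress marker, had -0.17. For these 4 genes the limma adjusted p lay between 0.229 and 0.764.

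Of the 4 protein disulfide isomerases, which form and rearrange disulfide bonds, 1 fell (25.0%, with 8.48% of all genes lower). Pdia6 (ENSRNOG00000050197) had 10466, 9924, 10243, 10867 and 9599 in shControl and 8165, 7363, 6897, 8439 and 7831 in shOpn3, with no overlap. It fell from 10220 ± 488 to 7739 ± 619 (SD, n = 5 per group), with a fitted log2 fold change of -0.40 (SE 0.0726; adjusted p = 0.00258 by limma). Pdia3 (ERp57, the partner of calnexin and calreticulin), Pdia4 (ERp72) and P4hb (PDI itself) were lower in 5 of 5 pairs but not called, with log2 fold changes of -0.34, -0.25 and -0.16 and limma adjusted p of 0.0972, 0.103 and 0.191. Pdia3 and Pdia4 were called with the block (adjusted p = 0.0249 and 0.00936). Pdia3 was also called without shControl replicate 1 (0.0354) or shControl replicate 5 (0.0478), and Pdia4 without shOpn3 replicate 4 (0.0184). The omitted samples were the lowest controls of Pdia3 and the highest shOpn3 sample of Pdia4. Each omission thus widens the difference by construction.

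Differences between related genes were tested on the log2 ratio of a pair of genes within each sample, for 12 pairs in 3 families (sensors, disulfide isomerases and derlins) that were picked after the values had been seen. The permutation shuffled all 10 samples without regard to pairs. With signs exchanged within the 5 pairs instead, the smallest exact p possible is 0.0625, so no ratio could pass 0.05. The ratio of Pdia6 to P4hb changed by -0.24 (SE 0.0807), lower in 5 of 5 pairs, and the groups did not overlap (exact two-sided permutation p = 0.00794, adjusted over the 12 gene pairs 0.0190; 0.0625 within pairs of samples). The other 5 ratios among the disulfide isomerases had adjusted permutation p from 0.233 to 0.667.

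**Figure D2:**
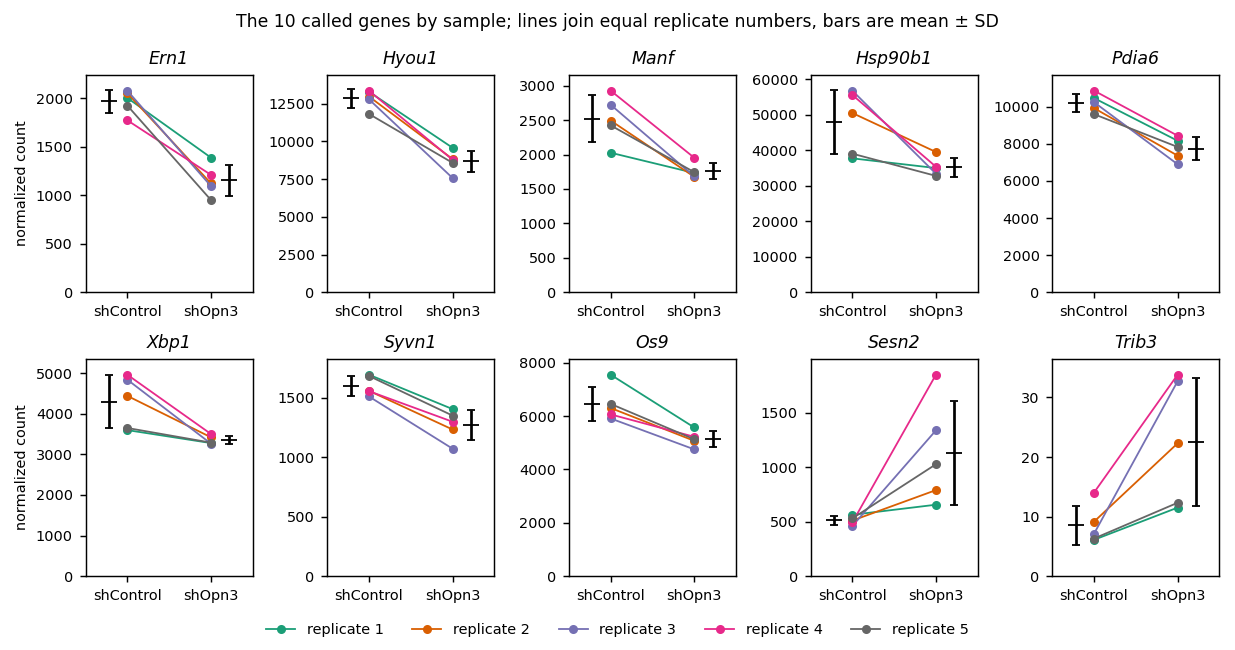
Normalized counts (y axis, from 0) of the 10 called genes in the 5 shControl and 5 shOpn3 samples, with lines joining equal replicate numbers and black bars for mean ± SD. The groups do not overlap in 8 of the 10 panels, and they overlap for Hsp90b1 and Trib3.

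The 8 genes of ER-associated degradation were split in sign, with 2 lower (25.0%, with 8.48% of all genes), 0 higher (with 10.4% of all genes) and 6 not called. Syvn1 (ENSRNOG00000020950), the ubiquitin ligase HRD1 of the export channel, had 1693, 1558, 1510, 1555 and 1683 in shControl and 1405, 1233, 1072, 1298 and 1350 in shOpn3. Os9 (ENSRNOG00000025570), the lectin that hands misfolded glycoproteins to that ligase, had 7549, 6302, 5911, 6062 and 6455 in shControl and 5572, 5072, 4753, 5224 and 5133 in shOpn3. For neither gene did the groups overlap, and shOpn3 replicate 3 was the lowest sample for both. The log2 fold changes were -0.34 for Syvn1 (SE 0.0832; adjusted p = 0.0145 by limma) and -0.32 for Os9 (SE 0.0784; adjusted p = 0.0131 by limma). The call of Os9 was lost after quantile normalization (adjusted p = 0.0635).

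Edem1, which trims mannose from misfolded glycoproteins, stood on the other side. It had 930, 1145, 1229, 1028 and 1003 in shControl and 1258, 1185, 1369, 1641 and 1230 in shOpn3, higher in 5 of 5 pairs with overlapping groups (log2 fold change 0.32 with an SE of 0.106; adjusted p = 0.0535 by limma). It was called with the block (adjusted p = 0.0307), without shControl replicate 3 (0.0350) or without shOpn3 replicate 2 (0.0472), and with TMM scaling (0.0437), quantile normalization (0.0446) or DESeq2 (0.0315). The omitted samples were its highest control and its lowest shOpn3 sample, so each omission widens the difference by construction. Sel1l, the adaptor of Syvn1, had a log2 fold change of 0.02, and Herpud1, a stress-induced organizer of the same complex, had 0.05 (adjusted p = 0.861 and 0.789 by limma). Among the derlins, membrane proteins of the export channel, Derl1, Derl2 and Derl3 had log2 fold changes of 0.12, -0.19 and -0.36 (adjusted p = 0.347, 0.179 and 0.281 by limma), and Derl2 was called with the block (0.0456). The ratio of Derl1 to Derl2 changed by 0.30 (SE 0.0535) and was higher in 5 of 5 pairs (exact two-sided permutation p = 0.00794, adjusted over the 12 gene pairs 0.0190; 0.0625 within pairs of samples).

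Of the 6 sensors and transcription factors, 2 fell (33.3%, with 8.48% of all genes lower), 0 rose (with 10.4% of all genes higher) and 4 were not called. Ern1 (ENSRNOG00000012864) had 2005, 2054, 2080, 1774 and 1926 in shControl and 1389, 1124, 1096, 1211 and 952 in shOpn3. All shOpn3 samples lay below all shControl samples, and Ern1 had the lowest log2 fold change of the 34 genes. It fell from 1968 ± 123 to 1155 ± 161 (SD, n = 5 per group), to 58.7% of the control mean, with a log2 fold change of -0.78 (SE 0.0975; adjusted p = 0.000410 by limma; p = 0.00794 in an exact two-sided permutation). Eif2ak3 had 1622 ± 92.4 and 1479 ± 78.6, and Atf6 had 2924 ± 203 and 3131 ± 196 (SD, n = 5 per group), and neither was called (log2 fold changes -0.13 and 0.10, adjusted p = 0.211 and 0.379 by limma). The within-sample log2 ratio of Ern1 to Eif2ak3 changed by -0.65 (SE 0.102), that of Ern1 to Atf6 by -0.88 (SE 0.111) and that of Eif2ak3 to Atf6 by -0.23 (SE 0.0276). Each of these 3 ratios was lower in 5 of 5 pairs with no overlap between the groups (exact two-sided permutation p = 0.00794, adjusted over the 12 gene pairs 0.0190; 0.0625 within pairs of samples).

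Xbp1 (ENSRNOG00000010298), the transcription factor whose mRNA IRE1 splices, had 3596, 4439, 4837, 4959 and 3648 in shControl and 3277, 3420, 3264, 3502 and 3287 in shOpn3. The shOpn3 samples lay close together, and shControl replicates 1 and 5 stood only slightly above them. The means were 4296 ± 645 and 3350 ± 105 (SD, n = 5 per group), with a fitted log2 fold change of -0.35 (SE 0.0969; adjusted p = 0.0261 by limma). This call was lost without any one of shControl replicates 2, 3 and 4 and shOpn3 replicates 3 and 5, with adjusted p from 0.0587 to 0.0663. Atf4, the factor downstream of PERK, had 6646 ± 656 and 6432 ± 605, and Ddit3, which encodes the stress factor CHOP, had 1096 ± 74.7 and 1233 ± 185 (SD, n = 5 per group). Neither was called (log2 fold changes -0.05 and 0.16, adjusted p = 0.763 and 0.361 by limma). The sign of Atf4 turned after quantile normalization (0.01), and Ddit3 was called without shOpn3 replicate 1 (0.26, adjusted p = 0.0365). That was the lowest shOpn3 sample of Ddit3, so leaving it out raises the shOpn3 mean by construction.

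Of the 5 targets of ATF4 and CHOP, 2 rose (40.0%, with 10.4% of all genes higher), 0 fell (with 8.48% of all genes lower) and 3 were not called. Sesn2 (ENSRNOG00000042785), a stress-induced inhibitor of mTORC1 that p53 also raises, had 564, 511, 461, 493 and 531 in shControl and 656, 790, 1338, 1849 and 1027 in shOpn3. The groups did not overlap, and the shOpn3 values spread from close to the controls in replicate 1 to more than those of any other sample in replicate 4. The means were 512 ± 38.6 and 1132 ± 477 (SD, n = 5 per group), which gives a log2 fold change of 1.05 (SE 0.228; adjusted p = 0.00730 by limma). Trib3 (ENSRNOG00000007319), a pseudokinase induced by CHOP, had only 6 to 15 reads in the shControl samples and 12 to 35 in the shOpn3 samples. Its normalized counts were 6.12, 9.16, 7.14, 14.0 and 6.33 in shControl and 11.5, 22.3, 32.7, 33.8 and 12.3 in shOpn3, higher in 5 of 5 pairs with overlapping groups. The log2 fold change was 1.23 (SE 0.357; adjusted p = 0.0310 by limma). Its shControl mean of 8.56 lay under the filter. Its call was lost without any one of shControl replicates 1, 2, 3 and 5 and shOpn3 replicates 2, 3 and 4, with adjusted p from 0.0528 to 0.0890, and also after quantile normalization (0.0761).

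The remaining targets were not called. Chac1, which degrades glutathione, had 231, 209, 175, 186 and 140 in shControl and 201, 199, 230, 283 and 278 in shOpn3 (log2 fold change 0.34 with an SE of 0.159; adjusted p = 0.162 by limma). Asns, the asparagine synthetase, and Ppp1r15a, the phosphatase subunit GADD34 that ends the translation block, had log2 fold changes of 0.04 and 0.10 (adjusted p = 0.882 and 0.487 by limma).

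The size of the spread within shControl followed a pattern shared by many of the genes. In 18 of the 34 genes (52.9%), shControl replicates 1 and 5 were both below the other 3 shControl samples, as they were in 30.2% of all genes tested, and in 3 genes (8.82%) they were both above, with 32.6% of all genes. Dnajb9, Asns, Pdia3, Canx, Hsp90b1 and Hspa5 were among the 18, with the mean of replicates 2 to 4 at 1.55, 1.48, 1.44, 1.42, 1.41 and 1.39 times that of replicates 1 and 5. The same numbers were lowest within shOpn3 for 11 genes (32.4%, with 18.6% of all genes), 10 of which were among the 18. The oligodendrocyte markers summed to 989646 and 1274901 in shControl replicates 1 and 5 and to 748448 to 811668 in the other shControl samples. Sums were also higher in these replicates for astrocyte (414628 and 464507, against 350498 to 368341), microglia and macrophage (15702 and 15809, against 11305 to 13377) and oligodendrocyte precursor markers (16179 and 17513, against 14622 to 14961). Endothelium and mural markers were lower (22165 and 22575, against 24217 to 24946). The sums of neuron, magnocellular and plasma and lymphoid markers were not split this way. The part of any cell type in the pattern was not tested. With both of these control samples left out, an alternative added after the data had been seen, 12 genes were lower (35.3%, with 10.7% of all genes) and 1 higher (2.94%, with 11.6% of all genes), and 22.3% of all genes were called in that fit. There Hspa5, Canx, Dnajb9 and Pdia3 were called (log2 fold changes -0.46, -0.41, -0.70 and -0.55, limma adjusted p from 0.00184 to 0.0286), while Trib3 was not (1.00, adjusted p = 0.109). For each of these genes, Trib3 included, the omitted samples were the lowest controls, so the omission raises the control mean by construction. These changes in calls are thus no separate evidence. With both samples of numbers 1 and 5 left out, Hspa5, Dnajb9, Pdia3 and Trib3 were called. Canx was not called there (-0.29, adjusted p = 0.0864 by limma).

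**Figure D3:**
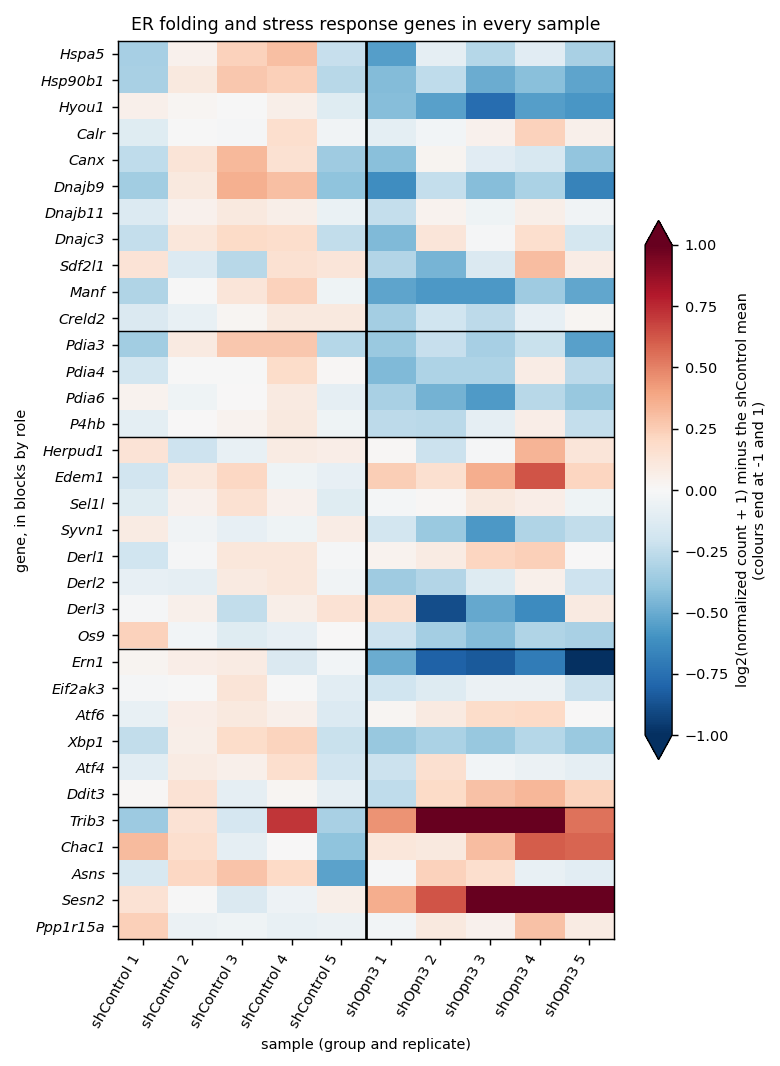
Each gene (rows, in blocks by role) in each of the 10 samples (columns), coloured by log2(normalized count + 1) minus the mean of the 5 shControl samples, with colours ending at -1 and 1. Ern1 and Hyou1 are blue in all shOpn3 columns, Sesn2 is red in them, and shControl replicates 1 and 5 are blue for Hspa5, Canx, Dnajb9 and Pdia3.

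Within same-numbered pairs, 22 of the 34 genes (64.7%) differed in the same direction in all 5 pairs, with 39.4% of all genes. Of these, 17 (50.0%) were lower, with 20.7% of all genes, and 5 (14.7%) were higher, with 18.7% of all genes. The lowest difference fell in pair 3 for 13 genes (38.2%), as it did for 15.9% of all genes. The highest difference fell in pair 4 for 12 genes and in pair 5 for 12 genes (35.3% each, with 31.1% and 18.9% of all genes). The groups did not overlap for 8 genes (23.5%, with 15.3% of all genes), all 8 of them called.

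The authors' deposited table called 12 of the 34 genes at an adjusted p of 0.05 (35.3%), with 21.3% of its genes called. Of these 9 were lower (26.5%, with 9.89% of its genes) and 3 higher (8.82%, with 11.4% of its genes). Beside the 10 genes above these were Dnajb9 (log2 fold change -0.48, adjusted p = 0.0237 in the authors' deposited table) and Edem1 (0.33, adjusted p = 0.0315 in the authors' deposited table).

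Other genes of the same pathways were grouped in 8 lists, which were also chosen with earlier results of these data known. Of 157 tested genes in them, 32 were lower and 6 higher (20.4% and 3.82%), beside 8.48% and 10.4% of all genes, with a median log2 fold change of -0.12 beside -0.02. In the lists of protein entry, disulfide formation, glycosylation and degradation, 25 of 86 tested genes fell (29.1%), 0 rose and 61 were not called. The 8 lists were drawn up separately, and these 4 were pooled only for this count. Lists with higher genes stand outside the pool, so its 0 is no separate evidence. Among the genes of entry and signal peptide processing 7 of 22 fell (median -0.17), led by Ssr4, a subunit of the translocon-associated complex, from 1916 ± 202 to 1105 ± 93.4 (SD, n = 5 per group), with a fitted log2 fold change of -0.79 (SE 0.0911; adjusted p = 0.000306 by limma), and Sec11c, a catalytic subunit of signal peptidase (-0.55, SE 0.0923). Of 18 genes of N-glycosylation and the calnexin cycle 8 fell (median -0.24), among them Ostc and Rpn2, subunits of the oligosaccharyltransferase (-0.51 and -0.49, SE 0.101 and 0.0790). Of 18 further genes of disulfide formation 4 fell (median -0.13), with the ER chaperone Erp29 from 2489 ± 383 to 1431 ± 146 (SD, n = 5 per group; -0.79 with an SE of 0.109, adjusted p = 0.000639 by limma) and the thioredoxin-related Tmx1 (-0.52, SE 0.159). Of 28 further degradation genes 6 fell (median -0.14), with the signal peptide peptidase Hm13 and Ubxn6, a cofactor of the extraction ATPase p97, at -0.39 and -0.37 (SE 0.0718 and 0.118).

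The lists of stress signalling were mixed, and their called shares lay near the 18.8% of all genes called. The share was 15.8% of the other ER stress transducers and 23.1% of the other integrated stress response genes. It was 14.3% of the ER-phagy receptors and 15.8% of the cytosolic heat shock genes. Of 19 other ER stress transducers 2 rose and 1 fell, with the protease gene Mbtps2, which releases ATF6, and the kinase gene Map3k5 at 0.39 and 0.35 (SE 0.113 and 0.0865) and the ATF6-like factor Creb3l2 at -0.53 (SE 0.0960). Of 26 other genes of the integrated stress response 2 rose and 4 fell (median -0.08). Atf3, a transcription factor induced by ATF4 and also by nerve injury, had 53.0, 47.8, 40.8, 45.9 and 60.1 in shControl and 247, 290, 368, 450 and 360 in shOpn3. All shOpn3 values were above all shControl values, and Atf3 rose, with a log2 fold change of 2.75 (SE 0.174; adjusted p = 1.29e-05 by limma). The cystine transporter Slc7a11 rose by 0.50 (SE 0.0940), and the glycine transporter Slc6a9 and the seryl-tRNA synthetase Sars1 had -0.68 and -0.40 (SE 0.176 and 0.100). Of 7 ER-phagy receptors 1 fell, Ccpg1 (-0.50, SE 0.107). Of 19 cytosolic heat shock genes, which answer to misfolding outside the ER, 2 rose and 1 fell. These were Hspa1b, whose near-identical copy Hspa1a makes its value uncertain and which had at most 23.4 normalized counts in shControl (1.06, SE 0.331), and Dnajb5 (0.38, SE 0.0987), and the small heat shock protein Cryab (-0.98, SE 0.273), which oligodendrocytes also make. The calls of Tmx1, Ubxn6, Mbtps2, Map3k5, Slc6a9, Hspa1b and Cryab held in 17, 13, 17, 23, 22, 14 and 20 of 24 alternatives (23 for Hspa1b). For the named genes without a printed p, the limma adjusted p lay between 0.00146 and 0.0487.

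**Figure D4:**
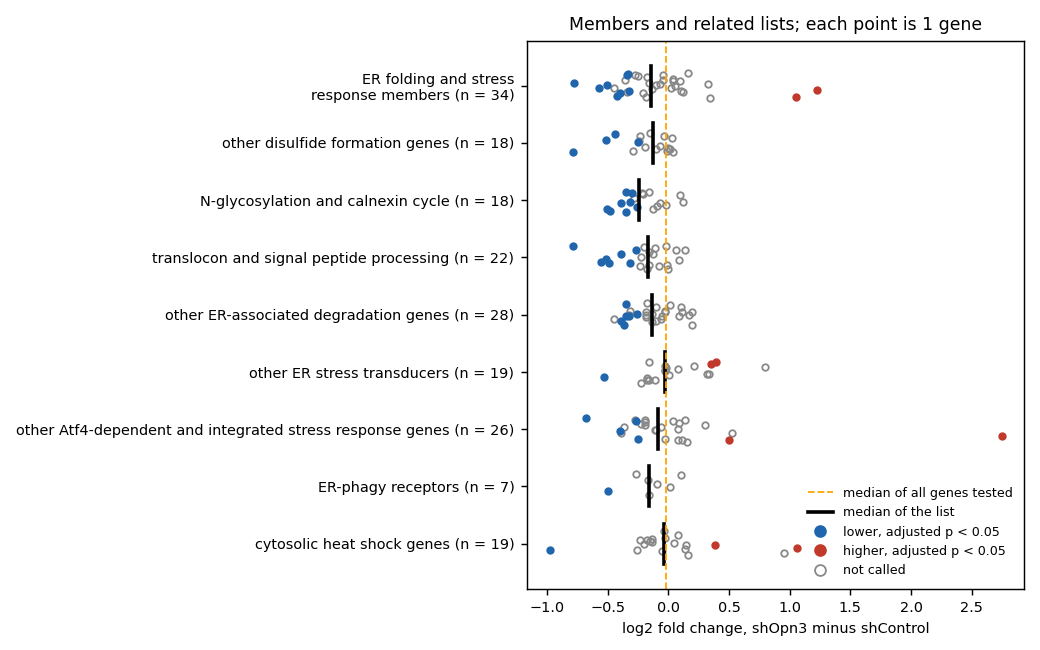
Log2 fold change (x axis, shOpn3 minus shControl) of every tested gene of the 34 (top row) and of the 8 related lists, 1 point a gene with the median of each list as a black bar. The 4 lists of entry, disulfide formation, glycosylation and degradation, pooled only for this count, hold 25 lower and 0 higher genes. Atf3 is the point at 2.75.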

How the data were processed

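RNA sequencing of 10 supraoptic nuclei (5 shControl, 5 shOpn3) was used. The sample columns hold a signal per gene that the authors made by dividing read counts by 1 size factor per sample (0.942 to 1.07), and whole reads were recovered for 100% of the positive values (within 0.001). Per the file headers, the table also holds the authors' log2 fold change, Wald score, p-value and adjusted p-value. FastQC, STAR, featureCounts and DESeq2 are named in the submitters' processing notes. The genome build, annotation and strand setting are not given in the sources used here, so overlapping genes are uncertain. Ensembl identifiers and symbols are those of the table, and all columns of samples were mapped.

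The main test was limma 3.58.1 in R 4.3.3 (lmFit, eBayes with trend, two-sided) on log2(normalized count + 1), with the group as the only term, over 15597 genes with a mean of at least 10, Benjamini-Hochberg adjusted with a threshold of 0.05. Such fold changes understate the change of genes with few reads. The procedure was also run on simulated counts drawn separately for each sample. No effect shared by same-numbered samples was drawn, so this could not test the procedure under such an effect. Single values were compared by exact permutation over 252 splits. Alternatives were another pseudocount, filter, scaling or test (edgeR 4.0.16, DESeq2 1.42.0, limma-voom), the replicate block and omitted samples. Equal replicate numbers were taken to pair samples, because each rat gave both nuclei and deviations from the group means of same-numbered samples correlated across genes in 5 of 5 pairs (r 0.12 to 0.44). For different numbers the median r was -0.21, which is no separate evidence, because deviations from a group mean cancel out within the group. No label states that a number marks a rat. As each rat gave both nuclei, the samples are not all separate rats. The main test and the permutation over 252 splits leave that pairing out, and their p-values measure only the spread between samples.

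The 34 genes and all lists were chosen with earlier results of these data known. Every called gene of the 34 is given with its values, and of each list at most the 2 largest rises and falls among called genes are named. Of 176 list genes 168 were matched by name and 157 tested.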

Additional observations from a re-analysis of the deposited data

Results flagged for a closer look

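A sample far from the rest of its group was looked for in 112 group values (56 genes in each group), and 4 such values were found, where chance alone gives about 5.6 at 1 in 20. For Manf, shOpn3 replicate 4 was the highest of its group at 1954 normalized counts, and the sample nearest to it had 1744. For Ddit3, the lowest shOpn3 sample was replicate 1 at 915, against 1251 in the sample above it. Ppp1r15a was highest in shControl replicate 1 at 1111, and the sample below it had 916. Oxt was also highest in shControl replicate 1, at 56716 against 21354. Of the 4 values, 3 come from samples of replicate number 1, and those of Ppp1r15a and Oxt come from the same sample.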

How the results depend on the processing

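Of 815 values that the 34 genes took in 24 alternatives, 728 kept their direction and side of the threshold, 24 lost the call, 45 gained one and 18 turned in sign. Hyou1, Manf, Pdia6, Syvn1, Ern1 and Sesn2 kept their call in all 24. The genes called over the whole table numbered 4726 with the replicate block, 4777 (edgeR) and 4504 (DESeq2) with the same block, and 5085 with limma-voom and sample weights, against 2940. The lower genes of the 34 numbered 13 (38.2%) with the replicate block, with edgeR and the block and with DESeq2 and the block. Of all genes 15.2%, 16.0% and 14.7% were lower in these fits. With limma-voom 15 of the 34 were lower (44.1%, with 17.0% of all genes), against 8 in the main fit (23.5%, with 8.48% of all genes). The share of all genes called lower thus rose as well. The block lost no call. The higher genes numbered 1 without shControl replicates 1 and 5 together and 1 at a mean of at least 50, where Trib3 is not tested, against 2. Of all genes 11.6% and 10.3% were higher in these fits, against 10.4%. Leaving out 1 sample gave 1987 to 3056 genes in all, 1 to 3 higher and 6 to 10 lower genes of the 34. These were 2.94% to 8.82% higher and 17.6% to 29.4% lower, with 7.48% to 10.6% and 5.26% to 9.01% of all genes. Signs turned only for genes that were not called. Without shControl replicates 1 and 5 together, without both samples of those numbers and with limma-voom, Asns had -0.19, -0.12 and -0.16 and Sel1l had -0.057, -0.021 and -0.041. Calr had -0.012 without those controls and -0.010 with limma-voom, and Atf4 had 0.012 after quantile normalization. Over the omission of 1 sample, Calr ranged from -0.0088 to 0.082, Dnajb11 from -0.079 to 0.0043, Dnajc3 from -0.13 to 0.025, Herpud1 from -0.023 to 0.12, Sel1l from -0.0069 to 0.062 and Asns from -0.093 to 0.11. Limma-voom gave shControl replicates 1 and 5 sample weights of 0.333 and 0.356, and the other shControl samples 1.28 to 3.72. It is thus not independent of the alternative without those controls. The cause of these changes in calls and signs was not tested. Opn3 kept its call in all 24, with log2 fold changes from -2.31 to -1.66. The median of all genes lay between -0.03 and -0.02 under the scalings tried. At 6 to 15 control reads, depth limits the precision of Trib3.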
